A study of Mus musculus with 23 samples.

Results

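Bank1, Upk1b and Khdrbs3 are 3 of the 19505 genes with a symbol on a mouse microarray that was hybridised with microglial RNA from 2 mouse models of Alzheimer disease pathology. They were chosen from these measurements, as genes that were high in microglia of wild-type mice and far lower in both groups of microglia sorted for Clec7a. The values of the 3 genes in those contrasts therefore describe the choice, and no test is attached to them. Each gene was read by 1 probe set, TC0300002998.mm.2 for Bank1 (Entrez 242248), TC1600001616.mm.2 for Upk1b (Entrez 22268) and TC1500000503.mm.2 for Khdrbs3 (Entrez 13992).

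The 23 samples were CD45+ CD11b+ microglia from cortex plus hippocampus, in 6 groups. The gated APP group held 4 samples of Clec7a+ cells, called active in the labels, from 12-month APPswlnd mice with pathology, a line with a mutant human amyloid precursor protein transgene. The gated TAU group held 4 samples of Clec7a+ cells from P301S (PS19) mice with pathology, a line with a mutant human tau transgene. The age fields of these 4 samples say 9 months and their titles 12 months; 9 months was used. The ungated groups were 4 samples from C57BL6 wild-type (WT) mice at 12 months, 3 from APPswlnd mice and 4 from P301S (PS19) mice at 3 months, both described as before pathology, and 4 from C57BL6 mice at 3 months. No Clec7a gate is named for the ungated groups. Between the gated groups and aged WT, the gate, the strain and the pathology therefore cannot be told apart, nor, in gated TAU, the labelled age. Between the gated groups and young mice of the same strain, the gate, the pathology and the age cannot be told apart. The labels give neither the promoters of the transgenes nor the sex of the mice, and they call the replicates biological without naming separate animals, so that p-values here reflect sample-to-sample spread, which may be technical.

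Bank1 encodes a cytoplasmic scaffold protein best known from B cells, where it links the antigen receptor to Src-family kinases and calcium release, and where variants of the human gene are associated with lupus. Upk1b encodes uroplakin 1b, a tetraspanin that forms plaques with other uroplakins on the surface of the bladder lining. Khdrbs3 encodes SLM2, an RNA-binding protein of the STAR family that directs the alternative splicing of neurexin transcripts in neurons. Microglia at rest are recognised by P2ry12, Tmem119 and Sall1, genes that are known to fall when microglia take on the Clec7a+ state found around amyloid plaques.

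All values are log2 signals as the authors deposited them, so that a difference of 1 is a factor of 2 in signal. Array medians ran between 6.87 and 7.13. A background level was set in each group as the 95th percentile of the group means of 1464 probe sets for odorant, vomeronasal, trace amine and taste receptors, genes that microglia are not known to use. It was 7.76 in gated APP, 7.85 in gated TAU, 8.11 in WT at 12 months, 8.0 in young APP, 7.88 in young TAU and 7.72 in young WT. Replicates 2 and 4 of WT at 12 months stood apart from replicates 1 and 3 of that group in the spread of their arrays (SD over probe sets 2.40 and 2.41, against 2.51 and 2.60). Of 13 microglia markers, 12 were measured, and all 12 were above the background level in every group. In bulk samples of this kind, fewer cells that carry a transcript and less of it per cell cannot be told apart.

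Bank1 was high and even in the 15 ungated samples and far lower in all 8 gated ones. Its log2 signals were 9.28, 8.69, 10.11 and 9.32 in gated APP and 9.81, 9.25, 9.29 and 9.57 in gated TAU, against 13.44, 13.13, 13.75 and 13.14 in WT at 12 months. The young samples read 13.55, 13.04 and 13.40 in APP, 13.07, 13.44, 13.65 and 13.12 in TAU, and 12.26, 13.52, 13.52 and 13.02 in WT. The lowest ungated sample, young WT replicate 1, still lay 2.15 above the highest gated one, gated APP replicate 3. Group means were 9.35 ± 0.58 in gated APP and 9.48 ± 0.26 in gated TAU, against 13.37 ± 0.29 in WT at 12 months (SD, n = 4 each). The difference of gated APP from aged WT was -4.01 ± 0.28 (SE), a signal 16.2-fold lower, and was the most negative of all 22203 probe sets in that contrast, at rank 1. In gated TAU it was -3.89 ± 0.28, or 14.8-fold lower, at rank 29. Against the young mice of the same strain the signal was 15.8-fold lower in gated APP and 14.3-fold lower in gated TAU. Bank1 was nevertheless above the background level in 4 of 4 gated APP and 4 of 4 gated TAU samples, so that a signal remained measurable in every one.

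**Figure D1:**
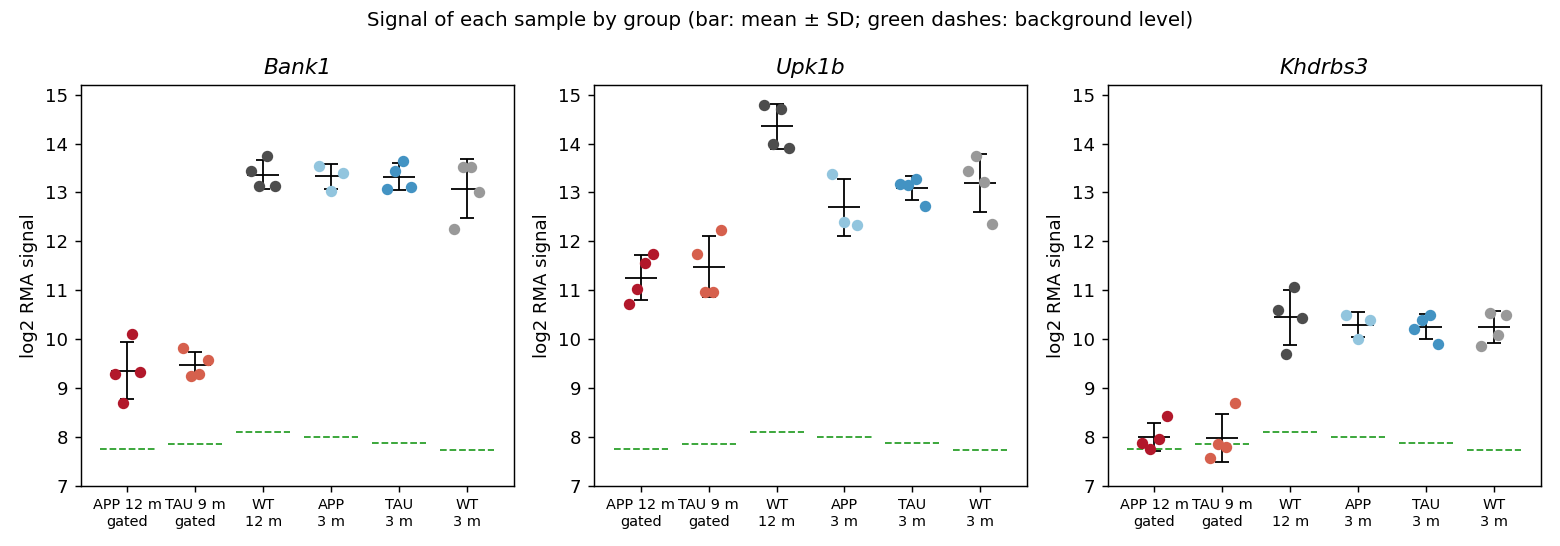
Log2 signal (vertical axis) of Bank1, Upk1b and Khdrbs3 in each of the 23 samples, by group along the horizontal axis. Points are samples, bars are group means ± SD, and green dashes are the background level of the group. The 8 gated samples lie below all 15 ungated samples in each panel, by 2.15 for Bank1, 0.10 for Upk1b and 1.0 for Khdrbs3.

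The promoter window of Bank1 is shown because it was the only one of the 3 genes found in the RefSeq promoter table. The entry was longer, and only its part before the outermost annotated start of the gene was kept and searched. Windows of other genes were the first 175 bases of their entries, whatever the place of their own start. The Bank1 window spans 175 bases, chr3:136326142-136326316 on the minus strand of GRCm38.p6, and ends just before that annotated start. It is printed 5′ to 3′, with capitals on the 2 stretches that matched a searched motif.
Bank1: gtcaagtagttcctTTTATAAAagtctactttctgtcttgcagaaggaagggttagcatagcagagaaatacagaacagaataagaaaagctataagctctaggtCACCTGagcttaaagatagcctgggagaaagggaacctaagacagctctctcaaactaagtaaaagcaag
Searches ran on both strands. The TATA box TATAAA, present in 8.22% of 32851 promoter windows of this length, was found on the forward strand at position 17 and on the reverse strand at position 15, counted from 1 at the 5′ end, so that the matches overlap. The E-box CANNTG was found once, at position 106, and stands in 54.5% of windows. The letters GAGGAA of the PU.1 core (16.8% of windows), GAAA, any 2 bases and GAAA of a paired interferon regulatory factor site (2.15%) and CAGAC of the SMAD box (32.5%) were not in this window. It held 0 CpG dinucleotides, where the median window held 3 and 13.2% held as few, and its GC content was 39.4%, against a median of 51.4%.

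Upk1b was also lower in every gated sample, but it was the only one of the 3 genes whose ungated groups did not all overlap. Its log2 signals were 10.72, 11.03, 11.55 and 11.74 in gated APP and 11.75, 10.96, 10.97 and 12.23 in gated TAU, against 14.79, 14.00, 14.71 and 13.90 in WT at 12 months. The young samples read 13.37, 12.39 and 12.33 in APP, 13.18, 13.16, 13.28 and 12.73 in TAU, and 13.43, 13.75, 13.22 and 12.36 in WT. Aged WT was highest, the young groups overlapped one another below it, and the gated groups overlapped at the bottom. The means were 11.26 ± 0.47 in gated APP and 11.48 ± 0.62 in gated TAU, against 14.35 ± 0.46 in WT at 12 months (SD, n = 4 each). The difference from aged WT was -3.09 ± 0.33 (SE) in gated APP, 8.51-fold lower, and -2.87 ± 0.33 in gated TAU, 7.32-fold lower. Set against young mice of the same strain the differences were smaller. There the gated APP difference was -1.44 ± 0.36, or 2.71-fold lower, and the gated TAU difference was -1.61 ± 0.33, or 3.05-fold lower. The choice of comparison group thus moved the Upk1b fold in gated APP between 8.51 and 2.71, while that of Bank1 stayed between 16.2 and 15.8. Only 0.10 separated the highest gated sample, gated TAU replicate 4, and the lowest ungated one, young APP replicate 3. All gated samples stayed well over the background level.

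Khdrbs3 stood over the background level in every ungated sample, and in some gated samples it could not be told from it. Its log2 signals were 7.87, 7.75, 7.96 and 8.42 in gated APP and 7.57, 7.86, 7.79 and 8.69 in gated TAU, against 10.59, 9.69, 11.06 and 10.44 in WT at 12 months. The young samples read 10.49, 10 and 10.39 in APP, 10.21, 10.39, 10.50 and 9.91 in TAU, and 9.86, 10.54, 10.08 and 10.49 in WT. The signal was at or below the background level in 1 of 4 gated APP samples and 2 of 4 gated TAU samples. The means were 8.0 ± 0.29 in gated APP and 7.98 ± 0.49 in gated TAU, against 10.45 ± 0.57 in WT at 12 months (SD, n = 4 each). The difference from aged WT was -2.45 ± 0.26 (SE) in gated APP, 5.45-fold lower, and -2.47 ± 0.26 in gated TAU, 5.53-fold lower. Against young mice of the same strain it was -2.29 ± 0.29 in gated APP, 4.90-fold lower, and -2.28 ± 0.26 in gated TAU, 4.84-fold lower. With gated signals this near background, these folds may understate the change in transcript.

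In each contrast that entered the choice, no gated sample overlapped its comparison group for any of the 3 genes. Among all 22203 probe sets, the gated samples lay entirely below the others for 4.83% in gated APP against aged WT and 5.55% in gated TAU against aged WT. The shares were 9.98% in gated APP against young APP and 8.97% in gated TAU against young TAU. Since the genes were chosen by these falls, nothing is read from the comparison. The 2 contrasts against aged WT share their 4 WT samples.

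Contrasts that the choice did not use directly were tested with limma over all 22203 probe sets, with Benjamini-Hochberg adjustment. The first asked whether the strains differed before pathology, at 3 months. None of the 3 genes was called in young APP against young WT, in young TAU against young WT or in young APP against young TAU. There were 0 calls among all probe sets (0%) in each, with 648, 922 and 351 probe sets at an unadjusted p under 0.05 in that order. Bank1 averaged 13.33 ± 0.26 in young APP (SD, n = 3) and 13.32 ± 0.27 in young TAU, against 13.08 ± 0.60 in young WT (n = 4 each). The 95% interval of its log2 difference from young WT was -0.37 to 0.87 in APP and -0.33 to 0.81 in TAU. Upk1b averaged 12.70 ± 0.58 in young APP and 13.09 ± 0.24 in young TAU, against 13.19 ± 0.59 in young WT. Its intervals were -1.24 to 0.25 in APP and -0.79 to 0.59 in TAU. Khdrbs3 averaged 10.29 ± 0.26 in young APP and 10.25 ± 0.26 in young TAU, against 10.24 ± 0.33 in young WT, with intervals of -0.54 to 0.64 in APP and -0.54 to 0.56 in TAU. For Bank1 and Khdrbs3 these intervals leave out differences of the size seen in the gated groups. For Upk1b in young APP they do not leave out a signal lower by about 1. The limit of -1.24 there lies close to the -1.44 of gated APP against young APP. Without young APP replicate 1 that Upk1b difference from young WT was -0.83. Young APP and young WT also stood apart in mean Y-linked signal, over Uty, Kdm5d and Eif2s3y (4.14 to 4.62, against 6.98 to 7.46). Young TAU lay below young WT as well, at 3.997 to 6.88, with only replicate 1 above 4.49. This mean ran from 4.16 to 7.13 in gated APP, 4.503 to 6.78 in gated TAU and 6.06 to 7.31 in aged WT. The Y-linked mean was also used as a covariate. Young APP then differed from young WT by 0.18 ± 0.41 (SE) for Bank1, -0.64 ± 0.49 for Upk1b and -0.24 ± 0.38 for Khdrbs3. Young TAU differed from young WT by 0.18 ± 0.36 for Bank1, -0.22 ± 0.43 for Upk1b and -0.22 ± 0.34 for Khdrbs3. None of these was called.

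**Figure D2:**
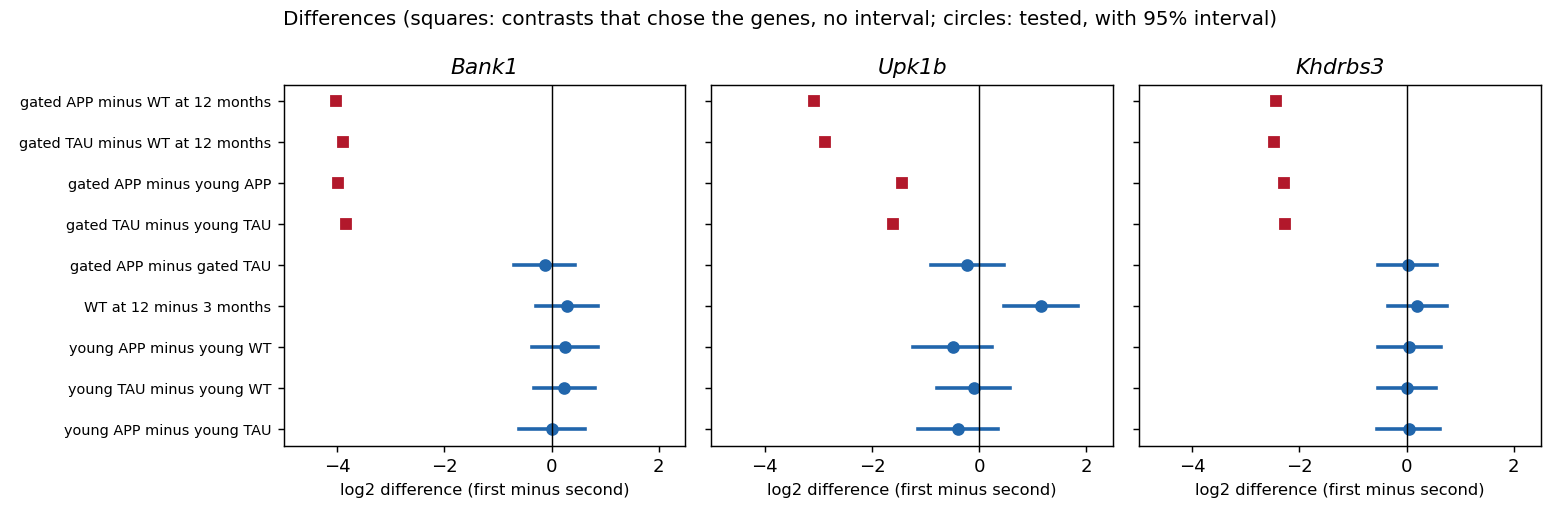
Log2 differences (horizontal axis, first group minus second) of the 3 genes in 9 contrasts (vertical axis). Red squares are the 4 contrasts that chose the genes and carry no interval, and blue circles are the 5 tested contrasts with their 95% intervals. Among the circles, only the interval of Upk1b in WT at 12 minus 3 months stays clear of 0. The aged WT samples of that contrast also entered the choice.

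The second tested contrast asked whether WT microglia differed with age. Its aged WT samples also entered the choice, which favoured genes with high values in them. A higher aged WT signal of the 3 genes is therefore not independent of the choice. Upk1b was higher at 12 months in 4 of 4 samples than in any 3-month sample, with 13.90 as the lowest value at 12 months, against 13.75 as the highest at 3 months. The difference of 1.16 ± 0.33 (SE; 95% interval 0.47 to 1.85), or 2.23-fold, had an unadjusted limma p of 0.002041 and an adjusted p of 0.3415, and so did not pass the threshold over all genes. In this contrast 8 probe sets were called (0.036%), 1987 had an unadjusted p under 0.05, and 2.09% lay entirely higher at 12 months without overlap. The adjusted limma p for Upk1b ran between 0.1075 and 0.8367 over the alternative settings. Leaving out aged WT replicates 2 and 4 gave a difference of 1.56 and the adjusted p of 0.8367. Those 2 replicates held the 2 lowest aged WT values of each of the 3 genes. Bank1 differed by 0.28 ± 0.28 between the WT ages (95% interval -0.29 to 0.86, limma adjusted p = 0.7693), and by 0.0117 without young WT replicate 1. Khdrbs3 differed by 0.20 ± 0.26 (95% interval -0.34 to 0.75, limma adjusted p = 0.8389).

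The third tested contrast set the gated groups against each other and so compared amyloid with tau pathology within the Clec7a gate, in strains of different labelled age. Here 206 probe sets were called (0.928%), and none of the 3 genes was among them. The genes were chosen for a strong fall in both gated groups, which made a large difference between these groups unlikely. Nothing is therefore read from the lack of a call, and the values below are a description. Bank1 differed by -0.13 ± 0.28 (SE; 95% interval -0.70 to 0.44, limma adjusted p = 0.9662). The interval was -0.91 to 0.47 for Upk1b, around a difference of -0.22 ± 0.33 (limma adjusted p = 0.9441). The Khdrbs3 difference of 0.0225 ± 0.26 had an interval of -0.53 to 0.57 (limma adjusted p = 0.9935), with part of its values at background.

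Because the 3 genes are best known from cells other than microglia, the markers of those cells were read in the same arrays. Of 17 B cell markers, 13 were measured, among them the antigen receptor chains Cd79a and Cd79b, the surface protein Ms4a1 and the lineage factor Pax5. None of the 13 was above the background level in gated APP, gated TAU or WT at 12 months, and Cd79b alone passed it, in young APP and young WT. Their summed signal (log2) ran from 9.93 to 10.19 in gated APP and 10.03 to 10.28 in gated TAU, against 10.11 to 10.22 in WT at 12 months. The single called member, Cd22, was below background in all 3 of these groups. With all or nearly all members below the background level, this sum could not show a change in B cell content. None of 9 urothelial markers, among them Upk1a, Upk2, Upk3a and Upk3b, was above background in any group or called in any contrast of a gated group. Their summed signal ran from 8.75 to 9.00 in gated APP and 8.92 to 9.02 in gated TAU, against 8.65 to 9.34 in WT at 12 months. With all 9 below background, this sum could not show a change in urothelial content, and nothing is read from the lack of calls. Against aged WT, 5.6% of all probe sets rose and 3.48% fell in gated APP, and 5.09% rose and 3.67% fell in gated TAU.

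Of 12 neuron markers, 5 were above background in every group, Snap25, Syt1, Map2, Camk2a and Nrgn. None of the 12 was called in either gated group against aged WT, and their summed signal ran from 12.22 to 13.16 in gated APP and 12.37 to 14.33 in gated TAU, against 12.37 to 13.16 in WT at 12 months. Among 9 mesothelial and meningeal markers only the keratin Krt19, which was below background, was called lower in gated APP against aged WT, and none in gated TAU. Against young TAU, Col1a1 of that list was higher in gated TAU (0.63 ± 0.20 (SE), limma adjusted p = 0.03929), above background in every group. The neuron marker Gad1 was higher there too (0.81 ± 0.16, limma adjusted p = 0.001334), below background in every group. Of all 22203 probe sets, 1480 rose and 1512 fell in that contrast. Border macrophage markers, genes of the macrophages along vessels and meninges, did move. Of 8, Cbr2 was lower in gated APP and Ms4a7 higher in gated TAU against aged WT, where 3.48% of all probe sets fell in gated APP and 5.09% rose in gated TAU. Their summed signal ran from 11.19 to 11.64 in gated APP and 12.46 to 14.60 in gated TAU, against 11.26 to 11.81 in WT at 12 months. In gated TAU this sum rested mostly on Ms4a7 (12.29 ± 1.39, SD), and no other marker of the list was called there against aged WT. Against young APP, 5 of the 8 markers fell in gated APP (Mrc1, Cbr2, Cd163, Lyve1 and F13a1), among them Mrc1 by 2.57 on the log2 scale. Cd163, Lyve1 and F13a1 were below background in every group. Of all 22203 probe sets, 1320 fell and 1375 rose in that contrast. The summed signal of 11.19 to 11.64 in gated APP did not overlap the 12.63 to 13.004 of young APP. Of the border macrophage markers, only Ms4a7 was called in gated TAU against young TAU, and it was higher in gated TAU. The part of these markers in the differences of the 3 genes was not tested.

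**Figure D3:**
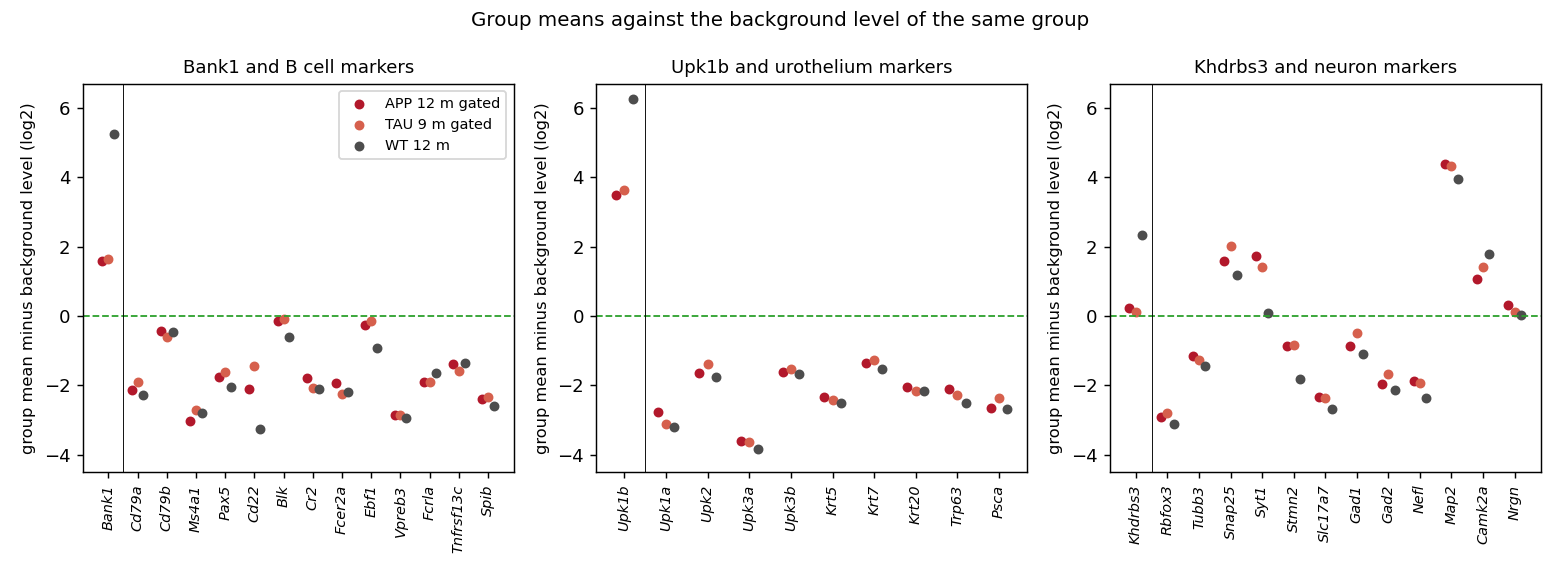
Group mean minus the background level of the same group (vertical axis, log2) for each of the 3 genes and the markers of the cell type it is best known from (horizontal axis), in gated APP, gated TAU and WT at 12 months. The 13 B cell and 9 urothelial markers lie below the dashed line of the background level in all 3 groups, while 5 of 12 neuron markers lie above it.

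Markers of microglia at rest were partly lower in the same samples. Of 12 measured, 7 fell in gated APP and 7 in gated TAU against aged WT, and none rose. Over all probe sets, 3.48% fell and 5.6% rose in gated APP, and 3.67% fell and 5.09% rose in gated TAU. Their median difference was -0.85 in gated APP and -0.71 in gated TAU, where the median of all probe sets was -0.06 and -0.05. In gated APP the fall was -3.31 ± 0.38 (SE) for Tmem119, a microglial membrane protein, -2.01 ± 0.35 for the transcription factor Sall1, -1.99 ± 0.26 for the purine receptor P2ry13 and -1.28 ± 0.14 for P2ry12. In gated TAU it was -2.89 ± 0.38 for Tmem119, -1.83 ± 0.35 for Sall1, -1.66 ± 0.26 for P2ry13 and -1.43 ± 0.14 for P2ry12. The limma adjusted p-values of these 8 differences were 0.001337 or lower.

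The partners of Bank1 in antigen receptor signalling moved in both directions. Of 24 listed genes, 21 were measured. Against aged WT, 4 rose and 2 fell in gated APP, while 2 rose and 4 fell in gated TAU. Over all probe sets, 5.6% rose and 3.48% fell in gated APP, and 5.09% rose and 3.67% fell in gated TAU. None of the 21 was called in gated APP against gated TAU, where 0.928% of all probe sets were called. Cd72, an inhibitory co-receptor, averaged 8.41 ± 0.74 in gated APP and 8.88 ± 0.72 in gated TAU, against 6.75 ± 0.08 in WT at 12 months, where it was below background. Fcgr2b, the inhibitory IgG receptor, averaged 13.65 ± 0.16 in gated APP, against 12.31 ± 0.50 in WT at 12 months (difference 1.34 ± 0.23, limma adjusted p = 0.0002668). Its gated TAU mean of 12.93 ± 0.27 was not called. The phosphatase Ptpn6, which dampens receptor signalling, rose in gated APP (1.14 ± 0.32, limma adjusted p = 0.02494), and Cd22, the remaining call, lay below background. Among the enzymes and channels downstream, the calcium channel Itpr2 fell in gated APP (-0.96 ± 0.29, limma adjusted p = 0.03996) and in gated TAU (-1.09 ± 0.29, limma adjusted p = 0.02021). The lipid phosphatase Inpp5d also fell in both, and the PI3-kinase subunits Pik3cg and Pik3r1 fell in gated TAU. In gated APP, Pik3cg and Pik3r1 differed by -0.94 ± 0.31 and -0.90 ± 0.29, just short of a call (limma adjusted p = 0.06516 and 0.05124). Syk and Plcg2, the kinase and phospholipase that carry the receptor signal, were not called in either gated group against aged WT. The median over the list was -0.04 in gated APP and -0.02 in gated TAU.

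Among uroplakins and tetraspanins, 27 of 28 were measured, and the members above background moved in both directions. Against aged WT, 4 rose and 3 fell in gated APP, while 5 rose and 2 fell in gated TAU. The shares over all probe sets were 5.6% and 3.48% in gated APP and 5.09% and 3.67% in gated TAU. Tspan15, counted among the genes that fell in gated APP, was below background in every group. Cd63, a tetraspanin of late endosomes and lysosomes, rose by 2.58 ± 0.25 in gated APP (limma adjusted p = 1.443e-07) and 2.37 ± 0.25 in gated TAU (8.071e-07). Cd9, a tetraspanin of the plasma membrane, rose by 1.52 ± 0.22 in gated APP and 1.69 ± 0.22 in gated TAU. Tspan14, which is known to escort the protease ADAM10, fell in gated APP (-1.29 ± 0.25, limma adjusted p = 0.001426) and in gated TAU (-0.81 ± 0.25, limma adjusted p = 0.04771). Tspan17, counted among the genes that rose in both, was below background in gated TAU and in aged WT. Tspan13 fell in both as well, with -0.99 ± 0.22 in gated TAU. The 5 other uroplakins measured, Upk1a, Upk2, Upk3a, Upk3b and Upk3bl, were at background in every group, so that Upk1b was the only uroplakin with a measurable signal. The median over the list was 0.02 in gated APP and -0.07 in gated TAU.

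Of 25 STAR proteins, splicing regulators and neurexins, 23 were measured, and against aged WT none rose and 2 fell in each gated group. The share of all probe sets that fell was 3.48% in gated APP and 3.67% in gated TAU, and 5.6% and 5.09% rose. Nova1, a splicing regulator best known from neurons, fell by 1.15 on the log2 scale in gated APP (SE 0.19, limma adjusted p = 0.0001831) and by 0.76 in gated TAU (SE 0.19, limma adjusted p = 0.01128). Qk, the STAR protein quaking, differed by -0.60 ± 0.15 in gated APP and -0.60 ± 0.15 in gated TAU (limma adjusted p = 0.01217 and 0.01354). The nearest relatives of Khdrbs3 gave no call. Khdrbs1 (Sam68) averaged 7.66 in gated APP and 7.84 in gated TAU, against 7.62 in WT at 12 months, all below background, and so did Khdrbs2 (SLM1), with 4.56, 4.68 and 4.17 in the same groups. The median over the list was -0.02 in gated APP and 0.06 in gated TAU. In WT at 12 against 3 months and in the young contrasts, none of these 3 lists had a called member. All probe sets together gave 8 calls (0.036%) between the WT ages and 0 in each young contrast, so nothing about the lists is read from this.

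**Figure D4:**
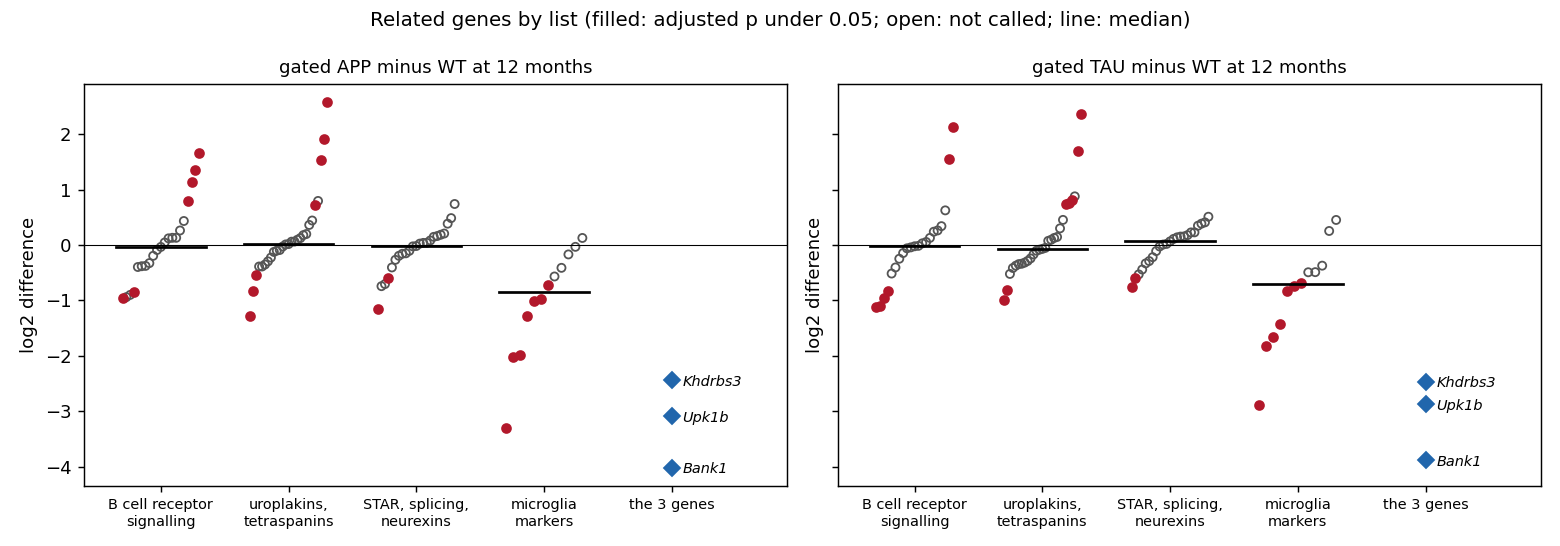
Log2 differences (vertical axis) of the measured members of 4 gene lists in gated APP minus WT at 12 months (left) and gated TAU minus WT at 12 months (right), with the 3 genes as blue diamonds. Filled red points passed an adjusted p of 0.05, open points did not, and lines mark list medians. The 3 genes, chosen for their fall, lie below all members of the signalling, tetraspanin and splicing lists.

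The 3 genes differed in how far they followed one another across samples. The correlations are descriptions over arrays that share a normalization, and over all 23 samples they rest on 2 separate clusters, gated and ungated. Bank1 and Khdrbs3 had a Pearson r of 0.96 over 23 samples, 0.66 over the 15 ungated samples and 0.11 over the 8 gated ones. For Upk1b with Bank1, r was 0.84 over 23 samples, 0.29 over the ungated and 0.53 over the gated ones. For Upk1b with Khdrbs3, r was 0.86, 0.39 and 0.65 over the same sets. After subtraction of the group means the r values were 0.44 for Bank1 with Khdrbs3, 0.44 for Bank1 with Upk1b and 0.50 for Upk1b with Khdrbs3. Khdrbs3 ranked 4th among 7865 eligible probe sets by its r with Bank1, and Bank1 ranked 2nd by its r with Khdrbs3. For Upk1b, Khdrbs3 was at rank 1 and Bank1 at rank 7, while Upk1b was only at rank 218 for Bank1 and 139 for Khdrbs3. These ranks rest on the step between gated and ungated samples, by which the genes were chosen, so nothing is read from them. After subtraction of the group means, the 3 genes ranked between 329 and 922 for one another.

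Genes with the most alike pattern were taken by Pearson r over the 23 samples, among probe sets with 1 symbol and a group mean above background. For Bank1 they were Rapgef5 (r = 0.98), a Rap exchange factor, Txnip (0.97), a thioredoxin-binding protein, P2ry12 (0.97), Khdrbs3 (0.96) and the phospholipase Pld1 (0.96). For Khdrbs3 they were Rapgef5 (0.97), Bank1 (0.96), P2ry12 (0.95), the sialomucin Cd164 (0.95) and the crystallin Crybb1 (0.95). For Upk1b the values were lower, with Khdrbs3 and the lysophosphatidic acid receptor Lpar6 at 0.86, the Fc receptor-like gene Fcrl1 at 0.86, P2ry13 at 0.85 and the tubulin-binding Tppp at 0.85. Ranked by the lowest of their r values with the 3 genes, Lpar6, Fcrl1, P2ry13, the fructose transporter Slc2a5 and P2ry12 led, between 0.84 and 0.86.

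Much of this likeness lay in the step between gated and ungated samples. Over the 15 ungated samples, r with Bank1 was 0.70 for Rapgef5, 0.64 for Txnip and 0.51 for P2ry12. Rapgef5 kept an r of 0.78 with Khdrbs3 there but had -0.02 with Upk1b. With Upk1b, the ungated r was 0.70 for Tppp, 0.63 for Slc2a5 and 0.61 for Lpar6. Slc2a5 differed by 0.41 ± 0.28 (SE) between WT at 12 and 3 months, and Lpar6 by 0.25 ± 0.28, each smaller than the 1.16 of Upk1b.

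**Figure D5:**
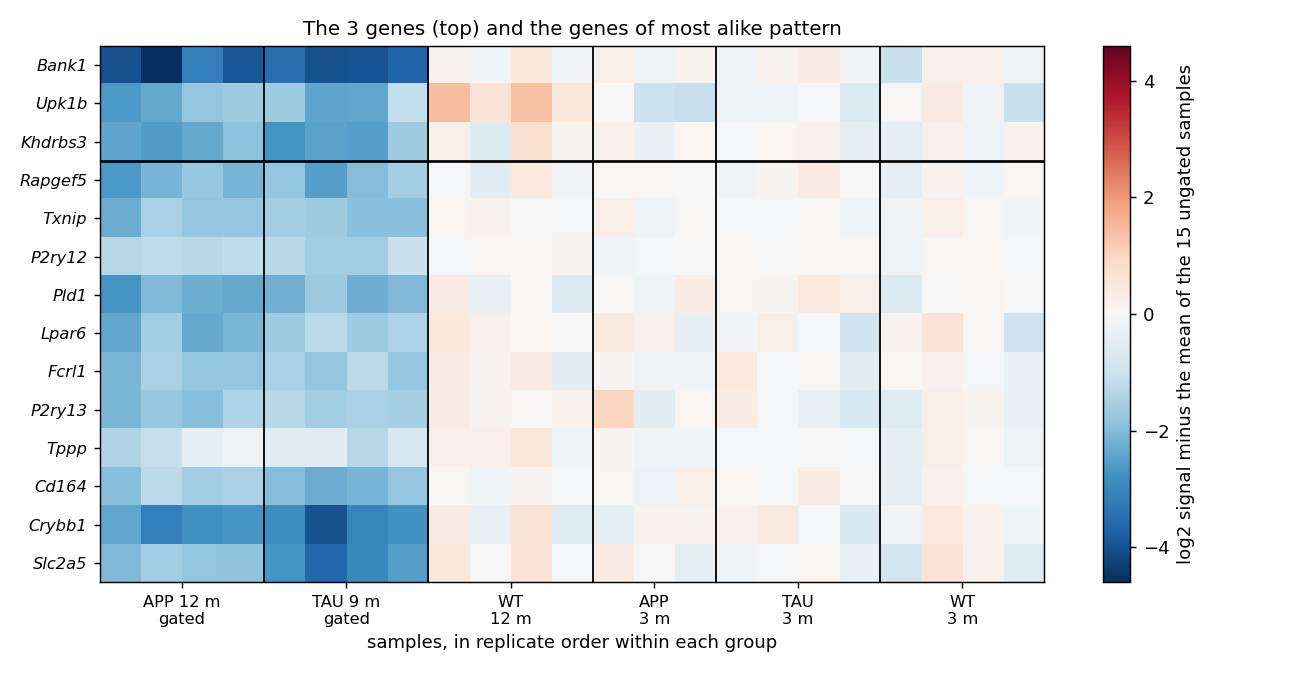
Log2 signal minus the mean of the 15 ungated samples (colour) for the 3 genes and the genes of most alike pattern (rows), in each of the 23 samples in replicate order within groups (columns). The 8 gated columns are blue in every row, palest for Tppp and with the deepest cell, -4.58, in Bank1, and the strongest red cells of Upk1b, 1.42 and 1.34, lie in WT at 12 months.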

How the data were processed

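The authors deposited log2 signals for 22203 probe sets, which per the submitters' processing notes came from RMA (Transcriptome Analysis Console). Versions and genome build are not given in the sources used here. RMA normalizes between arrays, so that a shift common to most genes would not be seen. Per the labels' protocols, TriPure was used for total RNA, of which 5 ng was biotinylated with a 3′ kit. Probe sets were named through GEO's platform annotation, which gave a symbol to 19572 and none to 2631. The genes Bank1, Upk1b and Khdrbs3 and the gene lists were chosen with earlier results of these data known.

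One limma model (3.58.1, R 4.3.3, eBayes without trend) with a mean per group was fitted to all 23 samples (17 residual and 5.11 prior degrees of freedom). All tests were two-sided, p-values were adjusted over the 22203 probe sets (Benjamini-Hochberg), and calls were made under 0.05. The number of arrays limits the precision.

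Named from the lists by rule were genes called in gated against aged WT samples, at most the 4 with the largest change a list and contrast. Further members, called or not, were named after their values were seen. A fold is given only where a group lay above background. Alternatives were centring on array medians, trended and robust eBayes, the 2 groups alone, array weights, a filter on dim probe sets, a replicate block, a Y-linked covariate, leaving out aged WT arrays 2 and 4, and leaving out each sample. Promoter sequence came from RefSeq (GRCm38.p6).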

Additional observations from a re-analysis of the deposited data

Results flagged for a closer look

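Each item here is a gene named among the lists or the alike genes whose level differed between the gated groups in limma's test of that difference. Ms4a7, a membrane protein of border macrophages, averaged 9.73 in gated APP, against 12.29 in gated TAU, a log2 difference of -2.56 ± 0.47 (SE, limma adjusted p = 0.00436). Mrc1, the mannose receptor of the same cells, averaged 9.04 ± 0.45 in gated APP, against 10.72 ± 0.72 in gated TAU (SD, n = 4 each), a difference of -1.67 ± 0.37 (limma adjusted p = 0.02434). Slc2a5, a fructose transporter whose pattern was among the most like that of the 3 genes, averaged 14.61 ± 0.18 in gated APP, against 13.46 ± 0.47 in gated TAU (SD, n = 4 each), a difference of 1.15 ± 0.28 (limma adjusted p = 0.04523). Tspan17, a tetraspanin, averaged 8.73 in gated APP, against 7.56 in gated TAU, a difference of 1.17 ± 0.20 (limma adjusted p = 0.001648), and its gated TAU mean was below the background level. Among 15 groups of 4 samples of Bank1, Upk1b and Khdrbs3, 0 held a sample far from the others by Dixon's test at 95%.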

How the results depend on the processing

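In the 4 contrasts that chose the genes, Bank1, Upk1b and Khdrbs3 kept their direction under every alternative run. No alternative brought any of the 3 genes past the threshold in a tested contrast. Directions that turned belonged to differences near 0. With arrays centred, Khdrbs3 was -0.0275 in young TAU against young WT. With array weights, Upk1b was 0.0375 in that contrast and Bank1 -0.0325 in young APP against young TAU. With the Y-linked covariate, Khdrbs3 was -0.24 in young APP and -0.22 in young TAU against young WT and -0.0129 in young APP against young TAU, where Bank1 was -0.0035.

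Counts of calls moved more. For WT at 12 against 3 months they were 3 centred, 5 on the 2 groups alone, 13 with array weights and 1 without aged WT arrays 2 and 4. On the 2 groups alone they were 93 in young APP against young WT, 120 in gated APP against gated TAU, and 1326 in gated APP and 1218 in gated TAU against aged WT. Without aged WT arrays 2 and 4 the last 2 were 1264 and 1227. With array weights they were 8 in young APP against young WT, 1 in young APP against young TAU and 4079 in gated APP against young APP. The cause of these moves was not tested.

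Leaving out 1 sample at a time gave -0.0233 to 0.40 for Bank1, -0.83 (without young APP replicate 1) to -0.31 for Upk1b and -0.0767 to 0.20 for Khdrbs3 in young APP against young WT. In young TAU against young WT the ranges were -0.0333 to 0.39 for Bank1, -0.38 to 0.0842 for Upk1b and -0.12 to 0.12 for Khdrbs3, with 0 to 1 calls. In young APP against young TAU they were -0.10 to 0.16 for Bank1, -0.73 (without young APP replicate 1) to -0.21 for Upk1b and -0.0733 to 0.19 for Khdrbs3, with 0 to 1 calls. Between the WT ages Bank1 ran from 0.0117 to 0.43, Upk1b from 0.88 to 1.35 and Khdrbs3 from -0.0025 (without aged WT replicate 3) to 0.45, with 0 to 88 calls, the 88 without aged WT replicate 3. In gated APP against gated TAU the ranges were -0.38 to 0.0900 for Bank1, -0.39 to 0.0333 for Upk1b and -0.12 to 0.26 for Khdrbs3. Calls in gated APP against young APP ran from 1643, without young APP replicate 2, to 2735.

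The labels do not say that the replicate numbers pair the samples, so the main fit did not use them. Same-numbered samples nevertheless tended to deviate together more often than others, though not in every pair. The deviations of 55 same-numbered pairs had r values between -0.521 and 0.552, with a median of 0.101 and 28 over 0.1, against a median of -0.034 and 40 of 165 over 0.1 for different numbers. With the replicate number as a block, Bank1 was -0.0183 in young APP against young TAU, Upk1b stayed at 1.16 between the WT ages (limma adjusted p = 0.3087), and no call of the 3 genes changed. The block left 8 calls between the WT ages and gave 224 in gated APP against gated TAU. Signal over background limits Khdrbs3 in the gated groups.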
